A study of Mus musculus with 15 samples.

Results

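*Cuzd1* and *Nptx1* are 2 of the 16729 genes in the table of mouse endometrial organoids, taken by their Ensembl identifiers, ENSMUSG00000040205 and ENSMUSG00000025582. They were picked because both encode proteins described as secreted that stood very low in untreated control organoids and high in organoids in which TGF-β signaling was blocked by a drug or by gene deletion. They were chosen by their measured differences between control + A83-01 and control + vehicle and between *Smad2/3* cKO and control + vehicle, so in those contrasts their values are a description and carry no test. *Cuzd1* encodes a protein with CUB and zona pellucida-like domains, known from the zymogen granules of the exocrine pancreas and from the estrogen-treated uterus, and linked in the mammary gland to signaling from the prolactin receptor through JAK2 and STAT5 and to ligands of the EGF family. *Nptx1* encodes neuronal pentraxin 1, a secreted relative of C-reactive protein that clusters glutamate receptors at synapses and that has been described as an inhibitor of Nodal signaling in embryonic stem cells. TGF-β and activin ligands act through type I receptor kinases, ALK4, ALK5 and ALK7, whose substrates SMAD2 and SMAD3 enter the nucleus with SMAD4 once phosphorylated and change transcription there.

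Organoids are bodies that uterine epithelial cells form when embedded in Matrigel. The study described control organoids with vehicle as round and cystic, and part of those with A83-01 or with the deletion as dense. All 15 samples came from mice with the floxed genotype Smad2flox/flox; Smad3flox/flox. Control organoids had no Cre and were grown with DMSO (control + vehicle, n = 3) or with A83-01, an inhibitor of the kinases ALK4, ALK5 and ALK7 (control + A83-01, n = 4). *Smad2/3* cKO organoids carried in addition Ltfcre/+, Cre expressed from the lactoferrin gene *Ltf*, and were grown with DMSO (*Smad2/3* cKO, n = 4) or with A83-01 (*Smad2/3* cKO + A83-01, n = 4). This Cre acts in the uterine epithelium, which is the tissue the organoids were made from, and the medium of all groups held Noggin, an antagonist of BMP ligands. Values are normalized counts, that is counts per gene estimated from the reads and scaled to make the samples comparable. Per the study's methods, RNA within each of these groups came from organoids of different mice, except that the mice behind *Smad2/3* cKO + A83-01 are not given in the sources used here, so for that group the spread may be technical.

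The sum of all normalized counts ran from 20241771 to 24423127 over the samples. *Smad2* ran from 1045 to 1335 in control + vehicle and from 821 to 924 in *Smad2/3* cKO, and *Smad3* from 1532 to 1741 and from 1170 to 1977, as values of whole genes that do not single out the deleted exons. The epithelial marker *Epcam* stood between 19889 and 28844 in every sample, whereas other epithelial markers, given at the end, moved with the groups. The 9 genes listed as responsive to SMAD2/3 had sums, most of them *Ccn2*, between 18731 and 29956 with vehicle. The sums were 2561 to 4236 in control + A83-01, while *Smad2/3* cKO had 2076 to 5311 without and 1270 to 1994 with A83-01. In 1 library, *Smad2/3* cKO replicate 2, the lysozyme gene *Lyz2* was at 3372, against at most 86.9 in the other samples. The leukocyte marker *Adgre1* was at 351 in the same library, against at most 9.01 in the others. In bulk samples such as these, fewer cells of a type and less RNA per cell cannot be told apart.

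*Cuzd1* lies on the minus strand of chromosome 7 (GRCm38, 131308554 to 131322292) with 9 exons of 2256 bases in all. It stands inside an intron of the longest annotated transcript of *Fgfr2*, a receptor for FGF10 and its relatives on the same strand, and 0 exons of *Fgfr2* overlap those of *Cuzd1*. *Nptx1* lies on the minus strand of chromosome 11 (GRCm38, 119538719 to 119547753) with 5 exons of 5217 bases, and no annotated gene overlaps it. The sequence before the start of *Cuzd1* is shown because SMAD complexes and nuclear receptors bind short elements in promoters. RefSeq gave an entry for 1 of the 2 genes, at chr7:131322293-131322542 on the minus strand of GRCm38.p6, which holds the 250 bases that precede the start of transcription. Capitals mark the matches to the SMAD-binding element GTCTG and to AGGTCA, an element of many nuclear receptors, searched on both strands.
Cuzd1 promoter: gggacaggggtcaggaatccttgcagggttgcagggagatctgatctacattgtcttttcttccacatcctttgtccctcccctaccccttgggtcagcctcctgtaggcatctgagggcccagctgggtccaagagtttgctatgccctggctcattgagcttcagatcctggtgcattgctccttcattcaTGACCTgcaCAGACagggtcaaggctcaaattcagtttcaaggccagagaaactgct

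Both matches were on the opposite strand, so they read TGACCT from position -57 and CAGAC from position -48 relative to the start, and they do not overlap. GTCTG or its reverse stood in 42.2% of the 32851 promoters of this length and AGGTCA or its reverse in 14.0%. The palindrome GTCTAGAC (0.167% of promoters), the GC element GGCGCC (9.59%), the TATA element TATAAA (12.4%) and the CACCC element of KLF factors (52.0%), each searched on both strands, were not among these 250 bases. The GC content was 53.2%, against a median of 52.4% over the promoters.

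*Cuzd1* was at 25.7, 32.6 and 13.2 normalized counts in control + vehicle replicates 1 to 3. In control + A83-01 it was at 6392, 5231, 6655 and 10201 in replicates 1 to 4. *Smad2/3* cKO organoids held 11041, 2937, 2519 and 12811. All of these samples lay above every vehicle sample, and the cKO samples fell into a higher pair, replicates 1 and 4, and a lower pair, replicates 2 and 3. With both interventions, *Smad2/3* cKO + A83-01, the values were 17803, 20468, 6855 and 23779. Replicate 3 of that group lay within the range of the control + A83-01 and *Smad2/3* cKO samples, and the other 3 lay above all of them. The means were 23.8 ± 9.81 (SD, n = 3), 7120 ± 2145, 7327 ± 5362 and 17226 ± 7334 (SD, n = 4 each). The SD was 73.2% of the mean in *Smad2/3* cKO, where the highest sample was 5.09-fold above the lowest, and 30.1% in control + A83-01, where it was 1.95-fold above.

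*Nptx1* was at 18.4, 29.6 and 1.78 normalized counts in control + vehicle replicates 1 to 3. The last of these is below 3, the lowest level treated as measurable. Control + A83-01 replicates 1 to 4 held 739, 1189, 4079 and 3694. Here replicates 1 and 2 were the lower pair, whereas *Cuzd1* was spread over a narrower range in the same samples. *Smad2/3* cKO organoids held 5142, 3250, 4736 and 5696, and *Smad2/3* cKO + A83-01 organoids 9276, 6253, 6305 and 6032. The cKO + A83-01 samples lay above all samples of the other groups, and *Smad2/3* cKO overlapped with control + A83-01. The means were 16.6 ± 14.0 (SD, n = 3), 2425 ± 1704, 4706 ± 1047 and 6966 ± 1544 (SD, n = 4 each). For *Nptx1* the spread was widest in the vehicle and A83-01 controls, with an SD of 84.4% and 70.3% of the mean, and narrow in both cKO groups, at 22.3% and 22.2%.

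**Figure D1:**
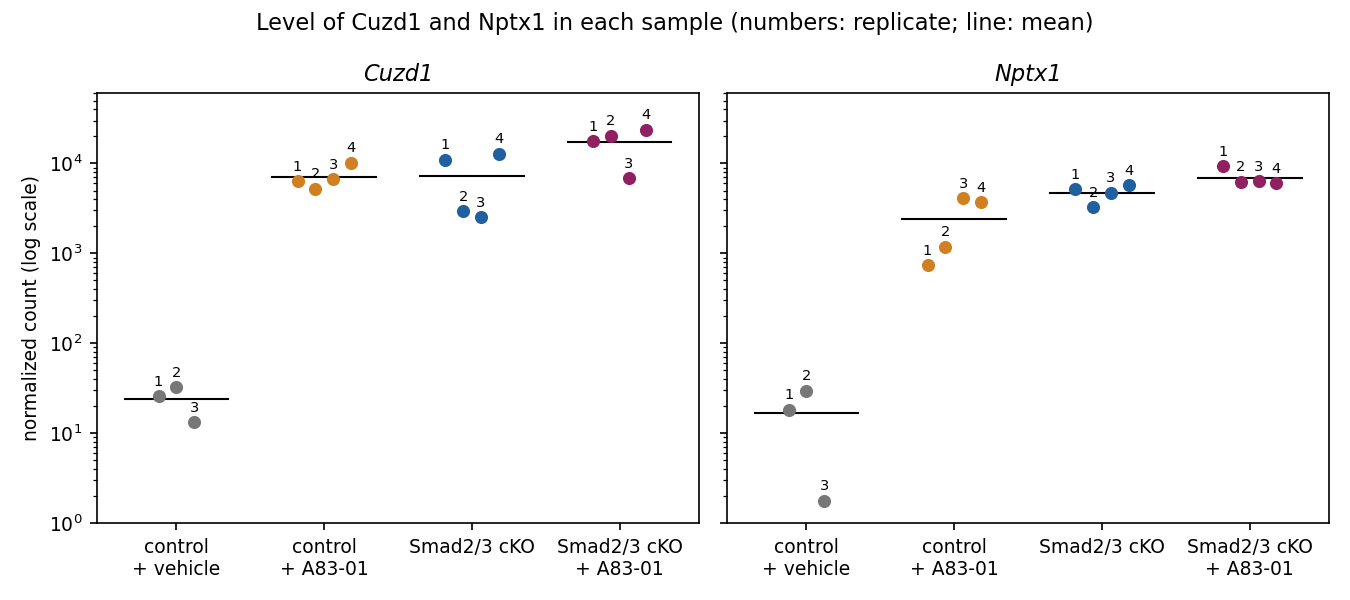
Normalized counts (log axis) of *Cuzd1* (left) and *Nptx1* (right) in each of the 15 samples by group, with replicate numbers beside the points and a line at the group mean. Every sample of the 3 other groups lies above every control + vehicle sample, and *Cuzd1* in *Smad2/3* cKO splits into 11041 and 12811 against 2937 and 2519.

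The order of the groups by mean was the same for both genes: vehicle was lowest, control organoids with A83-01 came next, then the deletion alone, and the deletion with A83-01 was highest. For *Cuzd1* the means of control + A83-01 and *Smad2/3* cKO differed by far less than either SD, and on the log2 scale their order turned, with means of 12.75 and 12.47. Against all genes, the mean of *Cuzd1* ranked 12092 of 16729 in control + vehicle and 519, 471 and 146 in the other groups in that order, and *Nptx1* ranked 12441, 1950, 834 and 553. Per kilobase of exon, the scale on which levels of different genes can be set side by side, mean *Cuzd1* was 10.6, 3156, 3248 and 7636 and mean *Nptx1* 3.18, 465, 902 and 1335 normalized counts per kilobase. *Cuzd1* was thus the higher of the pair per kilobase in 15 of 15 samples, by 1.23-fold in *Smad2/3* cKO replicate 3 to 20.0-fold in control + A83-01 replicate 1.

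Set against control + vehicle, fold changes of the means were 299 for *Cuzd1* and 146 for *Nptx1* with A83-01, 308 and 284 with deletion of *Smad2/3*, and 723 and 420 with both. On the log2 scale of the normalized count plus 1, used for all fits, *Cuzd1* differed by 8.21 (SE 0.33), 7.93 (SE 0.60) and 9.39 (SE 0.43) and *Nptx1* by 7.34 (SE 0.88), 8.61 (SE 0.69) and 9.18 (SE 0.67). In these comparisons all samples of the higher group lay above the vehicle samples for both genes, as did 10.3%, 14.8% and 16.1% of the genes tested (11.5%, 16% and 16.9% lay below), and since the pattern chose the genes nothing is read from it. The size of the *Nptx1* values depended in part on control + vehicle replicate 3. Without that sample they were 6.29, 7.56 and 8.14, whereas *Cuzd1* was at 7.85 with A83-01 and 9.03 with both. Values with and without A83-01 can be set side by side for control samples that share a label number, although what the numbers stand for is not stated and 1 of them occurs in both genotypes. *Cuzd1* was 249-fold, 161-fold and 504-fold higher with A83-01 in replicates 1, 2 and 3, which share numbers in this way. *Nptx1* was 40.2-fold higher in both replicate 1 and replicate 2, and in replicate 3 it was at 4079 against 1.78, for which no fold is given. The effect of A83-01 in *Smad2/3* cKO less that in control organoids was -6.75 (SE 0.76) for *Cuzd1* and -6.76 (SE 0.93) for *Nptx1* on the log2 scale, again as a description.

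Whether the groups with blocked signaling differed from one another was not part of the choice of the genes, though their samples were, and these 3 comparisons were tested. Neither gene passed the thresholds (limma, with a p below 0.01 after Benjamini-Hochberg adjustment and a change of more than 1.4-fold) in any of them. Few genes did: 0% of 12998 genes for *Smad2/3* cKO + A83-01 vs. *Smad2/3* cKO, 0.0232% of 12915 for *Smad2/3* cKO + A83-01 vs. control + A83-01 and 0% of 12980 for *Smad2/3* cKO vs. control + A83-01. At an unadjusted limma p under 0.05 these counts were 554, 1229 and 826 genes. The 3 genes that passed, named after their values were seen, were *Nlrp6*, *Ncald* and *Otop1*.

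A83-01 on top of the deletion was accompanied by *Nptx1* values that were 0.57 higher on the log2 scale (SE 0.20, 95% interval 0.13 to 1.02, adjusted p = 0.994 by limma). All 4 samples with A83-01 lay above the 4 without it, as did 1.88% of genes. *Cuzd1* was 1.46 higher (SE 0.58, 95% interval 0.16 to 2.75, adjusted p = 0.994 by limma), and the groups overlapped through *Smad2/3* cKO + A83-01 replicate 3. Neither interval is adjusted for the number of genes tested. For the label number found in both of these groups, that of *Smad2/3* cKO replicate 2 and *Smad2/3* cKO + A83-01 replicate 1, *Cuzd1* was 6.06-fold and *Nptx1* 2.85-fold higher with A83-01.

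The deletion on top of A83-01 gave *Nptx1* values 1.84 higher (SE 0.50, 95% interval 0.73 to 2.96, adjusted p = 0.235 by limma) without overlap of the groups, as was found in 3.38% of genes (2.73% were lower without overlap). *Cuzd1* was 1.18 higher (SE 0.37, 95% interval 0.35 to 2.00, adjusted p = 0.335 by limma) with overlap. Between the single interventions, *Smad2/3* cKO vs. control + A83-01, *Cuzd1* differed by -0.28 (SE 0.52, 95% interval -1.43 to 0.87, adjusted p = 0.879 by limma). Its direction turned to 0.039 without *Smad2/3* cKO replicate 2 and to 0.11 without replicate 3, the lower pair. *Nptx1* was 1.27 higher with deletion (SE 0.50, 95% interval 0.15 to 2.39, adjusted p = 0.722 by limma), and the groups overlapped, while 1.82% of genes were higher without overlap and 1.63% lower.

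**Figure D2:**
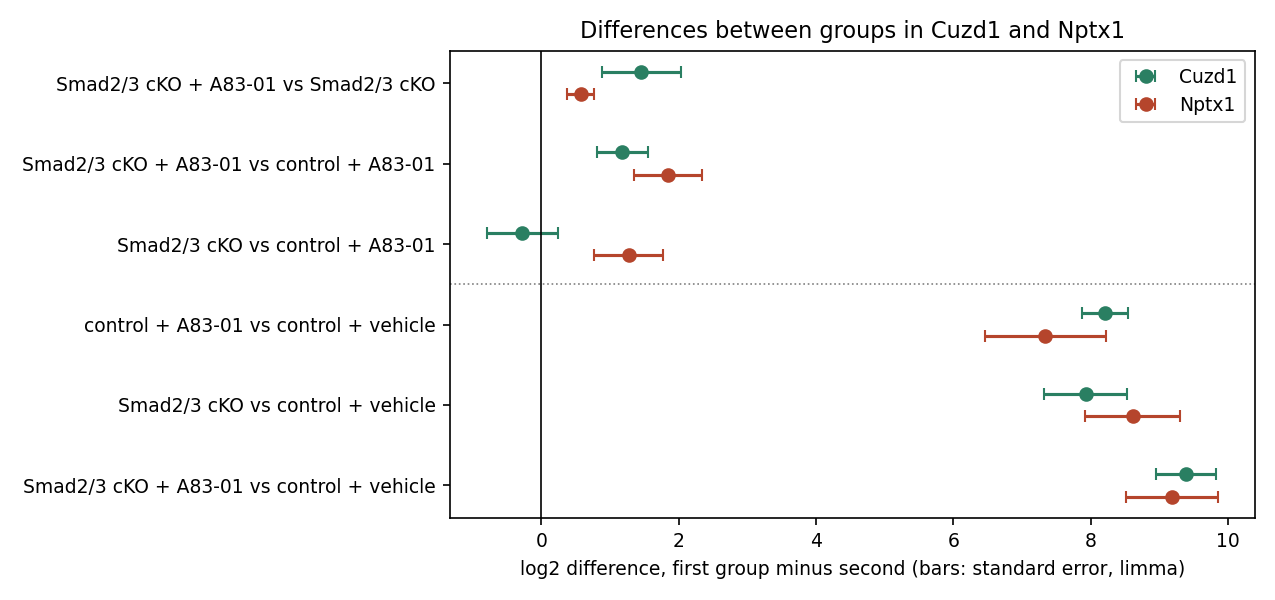
Log2 differences (first group minus second) of *Cuzd1* and *Nptx1* with standard errors from limma for 6 comparisons, with the tested ones above the dotted line and those used to choose the genes or sharing the vehicle samples below it. Differences from control + vehicle lie between 7.34 and 9.39, and those among the other groups between -0.28 and 1.84.

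The sample labels carry numbers that fall into a lower and a higher series, and what the series stand for is not stated. *Nptx1* followed them in control + A83-01, with 739 and 1189 in the lower series and 4079 and 3694 in the higher. Within the lower series *Smad2/3* cKO exceeded control + A83-01 by 2.12 on the log2 scale and within the higher by 0.42, with 2 samples a group in each. For *Cuzd1* the same differences were -0.02 and -0.54, and its split in *Smad2/3* cKO did not follow the series, since replicates 1 and 2 are of the lower and 3 and 4 of the higher. All 4 *Smad2/3* cKO + A83-01 samples belong to the lower series. Within it they exceeded control + A83-01 by 2.87 for *Nptx1* and 1.43 for *Cuzd1*, and *Smad2/3* cKO by 0.75 and 1.45. With the series as a covariate, chosen after seeing the data, the *Nptx1* difference from control + A83-01 passed the thresholds (2.87, adjusted p = 0.000528 by limma), together with 72 genes in all. The part of the series in these differences was not tested otherwise.

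**Figure D3:**
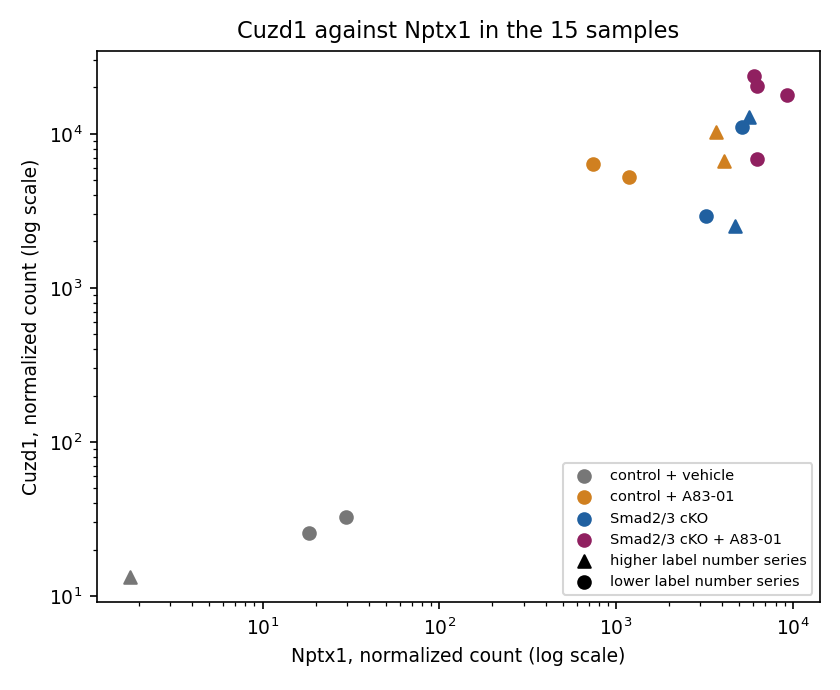
*Cuzd1* against *Nptx1* in normalized counts (log axes) for the 15 samples, with colour for the group and the marker shape for the label number series. The 3 vehicle samples lie far below the rest, and the control + A83-01 samples of the lower series have *Nptx1* at 739 and 1189.

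Across the 15 samples Pearson's r between the log2 values of the genes was 0.957 and Spearman's rho 0.846. Most of that is the gap between vehicle and the other groups: after the group means were removed r was 0.442. The samples share their groups, so these values describe the pattern only. By Pearson r, *Nptx1* was the 39th gene most like *Cuzd1* among 13065, and *Cuzd1* the 20th most like *Nptx1*. The genes most like *Cuzd1* were *Gjb1* (r = 0.986), which encodes the gap junction protein connexin 32, *Gpx3* (0.980), a secreted glutathione peroxidase, *Bhlha15* (0.978), the transcription factor MIST1 of secretory cells, *Fam174b* (0.976) and *Tgfb2* (0.974), a TGF-β ligand. *Tgfb2* went from a mean of 197 normalized counts in control + vehicle to 13812, 23610 and 29471 in the other groups, and *Gpx3* from 9831 to 124319, 157259 and 201415. The genes most like *Nptx1* were *Slc17a4* (r = 0.988), an organic anion transporter, *Erich5* (0.977), *Tshr* (0.977), the receptor for thyroid-stimulating hormone, *Gjb1* (0.976) and *Itih5* (0.973), a secreted inhibitor chain that binds hyaluronan. *Tshr* had means of 42.5, 1751, 4157 and 4388 normalized counts over the groups. By Spearman rho only *Gjb1* of the 5 remained among those most like *Cuzd1*, and none of the 5 for *Nptx1*, so the names depend on the measure.

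The tested genes on either side of *Cuzd1* and *Nptx1* differed much less from control + vehicle. The 2 genes were chosen by that difference, so nearly any gene would differ less, and nothing is read from the gap. With A83-01, 2 of 13009 genes rose more than *Cuzd1* and 4 more than *Nptx1*. With deletion these counts were 4 and 3 of 13149. Of the 10 measured neighbours of *Cuzd1*, 5 on each side, 7 were expressed enough to be tested. None passed with A83-01, where 2.27% of all genes did. In *Smad2/3* cKO vs. control + vehicle, where 7.38% of genes passed, *Acadsb*, an acyl-CoA dehydrogenase gene 88.3 kb away, was higher by 1.24 (SE 0.16, adjusted p = 0.0014 by limma). In *Smad2/3* cKO + A83-01 it was higher by 1.36 (SE 0.23) and *Plekha1* lower by 1.35 on the log2 scale, at adjusted p = 0.00272 and 0.00507, where 11.7% of genes passed. The last 2 calls were lost under 6 and 5 of 18 alternatives. The nearest neighbour, *5430419D17Rik*, 2.1 kb from the end of *Cuzd1*, had group means of 0.299 to 2.20 normalized counts. *Dmbt1*, which like *Cuzd1* encodes a secreted protein with CUB and zona pellucida domains and stands 187 kb away, was at 0 in the 3 vehicle samples, at 0, 3.06, 0 and 0 in control + A83-01, at 24.1, 15.3, 28.1 and 0.932 in *Smad2/3* cKO and at 7.79, 7.91, 21.8 and 19.8 with both. It was too low to be tested against vehicle. *Fgfr2*, whose long transcript spans *Cuzd1*, had means of 1657, 3735, 4942 and 5529 normalized counts over the groups. Of the 10 neighbours of *Nptx1*, 8 were tested and 0 passed in any comparison. Those next to it, *Endov* and *Rptor*, had group means between 364 and 565 and between 799.9 and 1449.

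**Figure D4:**
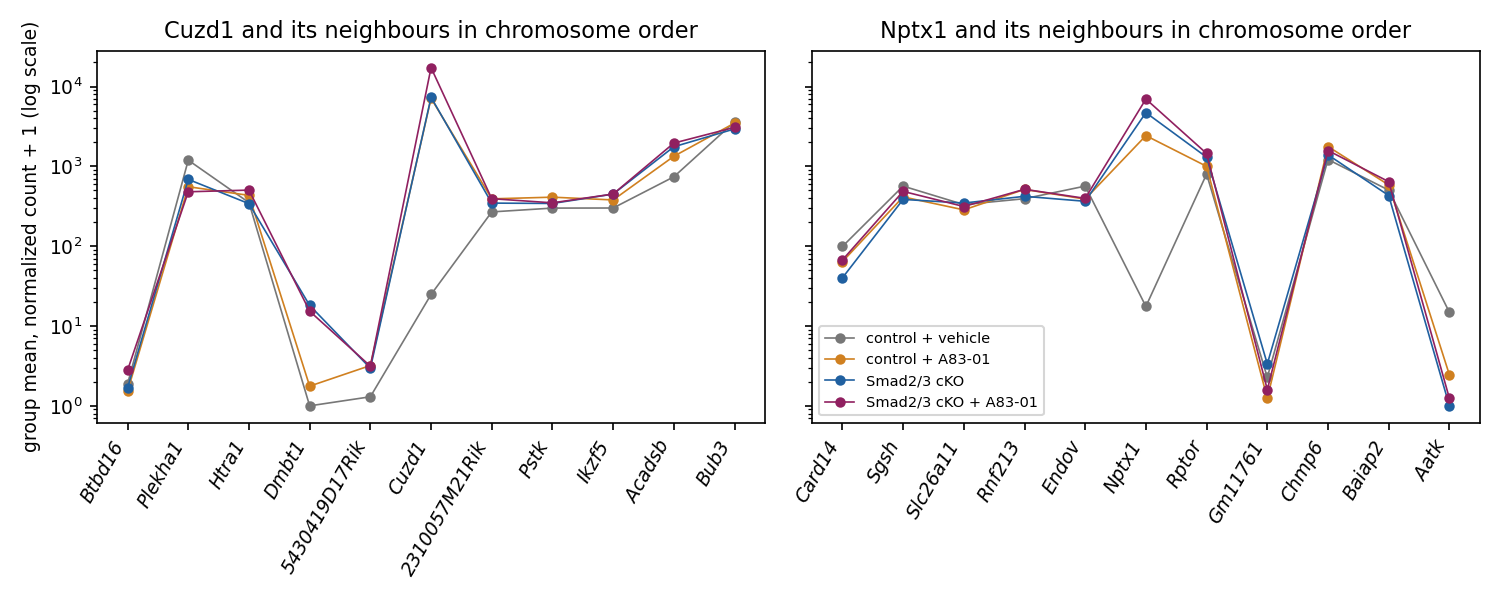
Group means (normalized count plus 1, log axis) of *Cuzd1* (left) and *Nptx1* (right) and of the 5 measured genes on each side in chromosome order, not to scale in distance, with a line for each group. The widest gap between control + vehicle and the other groups is seen at the 2 genes themselves, which were chosen by that gap. *Acadsb* goes from 739 to 1955. Among neighbours of low level, *Dmbt1* goes from 0 with vehicle to 17.1 in *Smad2/3* cKO and *Aatk* from 13.8 to 0.

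Genes tied to *Nptx1* by family or function were few in these organoids. Of 8 other pentraxin genes 3 were in the table and 1, the membrane-bound neuronal pentraxin receptor gene *Nptxr*, was tested. It was at 164, 206 and 405 normalized counts in control + vehicle and at 63.3 to 192 in the other samples, and did not pass in any comparison with vehicle (log2 difference -0.94 with A83-01, adjusted p = 0.171 by limma). *Nptx2*, the closest relative in neurons, was at most at 11.2. Of 12 genes for synaptic and Nodal partners 3 were in the table. *Adam17*, the protease that sheds pentraxins, was at 1270 to 2591 in all samples, and *Nodal* and *Lefty1* were at most at 6.79 and 16.3. Of the 10 neuronal markers 7 were in the table, and their sum was between 13.4 and 114 with vehicle and at most 28.4 in control + A83-01, 44.4 in *Smad2/3* cKO and 27.1 with both. *Stmn2* was at 0 in 10 of the 12 samples outside control + vehicle. The 4 neuroendocrine markers measured of 7 summed to 38.2 to 54.1 in control + vehicle and to 0 to 18.7 in the others.

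No tested gene tied to *Cuzd1* by domain was higher at the thresholds. Of 40 genes for CUB domain proteins 19 were tested with A83-01, of which 0 were higher and 1 lower, the growth factor gene *Pdgfd* (log2 difference -1.68, SE 0.28, adjusted p = 0.00943 by limma), a call lost under 12 of 18 alternatives. The median of the 19 was -0.87, against -0.015 over all genes. With the deletion 0 of 20 passed, and with both 3 of 19 were lower, *Nrp1*, *Pdgfc* and *Pdgfd*. Of 14 genes for zona pellucida domain proteins 3 were tested. The uromodulin gene *Umod* was lower with the deletion by 4.18 on the log2 scale (SE 0.60, adjusted p = 0.00257 by limma, lost under 3 of 17 alternatives), from 40.8 to 109 normalized counts in control + vehicle to 1.86 to 4.46. *Umod* also passed as lower with both (log2 difference -4.91), a call lost under 6 of 17 alternatives. In the background, 1.08% of genes were lower with A83-01, 3.3% with deletion and 5.64% with both.

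Along the axis from the prolactin receptor through JAK2 to STAT5, 8 of 11 genes were tested. None passed with A83-01, and 1, *Stat5b*, was higher with deletion, by 0.89 (SE 0.17, adjusted p = 0.00843 by limma), and with both, by 0.81 (SE 0.17, adjusted p = 0.00846). Over all genes, 1.19% were higher at the thresholds with A83-01, 4.08% with deletion and 6.1% with both. The *Stat5b* calls were lost under 10 and 9 of 18 alternatives, among them scaling to equal totals. *Stat5b* was at 693, 892 and 1045 normalized counts in control + vehicle and at 1368 to 1808 in the cKO groups. *Jak2* was at 4378 to 6642 in control + vehicle and 4521 to 12357 in control + A83-01, an overlap. It was at 8927 to 15295 in *Smad2/3* cKO and 7436 to 16503 with both, above every vehicle sample, as were 14.8% and 16.1% of genes. Its log2 differences there, 1.06 (SE 0.22, adjusted p = 0.011 by limma) and 1.10 (SE 0.26, adjusted p = 0.0151), missed the threshold. Of the 15 genes for EGF family ligands and their receptors 10 were tested and 0 passed in any comparison. Over all genes, 2.27%, 7.38% and 11.7% passed in either direction in the comparisons with vehicle. *Areg* (amphiregulin) was at 32.5, 55.9 and 74.9 in control + vehicle and at 3.90, 3.81 and 1.22 in *Smad2/3* cKO replicates 1, 2 and 4, with replicate 3 below every vehicle sample, and had a log2 difference of -3.16 (SE 0.82, adjusted p = 0.028 by limma). In this comparison 16% of genes lay below every vehicle sample.

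Of 24 genes for acinar enzymes and their regulators 10 were in the table and 4 were tested with A83-01. Of the enzyme genes, the elastase gene *Cela1* was the highest, at 61.7 to 258 normalized counts with overlap of all groups, and the others were at most at 51.8. *Bhlha15*, which drives the build-up of secretory granules and is also among the genes most like *Cuzd1*, was at 647, 639 and 601 normalized counts in control + vehicle, 1741 to 2015 with A83-01, 1668 to 2554 with the deletion and 2058 to 2217 with both. It rose by 1.55 (SE 0.14), 1.63 (SE 0.16) and 1.75 (SE 0.12) on the log2 scale, with adjusted p = 0.000735, 0.000507 and 2.85e-05 by limma, where 1.19%, 4.08% and 6.1% of all genes were higher. Of 16 estrogen-responsive uterine genes tested, 1 was lower with A83-01, 5 with deletion and 6 with both, against 1.08%, 3.3% and 5.64% of all genes, and 0 were higher. *Sprr2b*, an epithelial envelope protein gene, was at 1883, 2477 and 1230 in control + vehicle and at 17.9 to 212 in the other 12 samples. The progesterone receptor gene *Pgr* was lower by 1.61 with deletion (SE 0.28, adjusted p = 0.00539 by limma), a call lost under 7 of 18 alternatives. *Ltf* itself went from 394181 to 600426 in control + vehicle to 54501 to 101268 with both interventions. It was at 67933 to 390831 in control + A83-01 and at 55396 to 208980 in *Smad2/3* cKO. The cKO organoids carry Cre expressed from this gene, and its part in these values was not tested. Of the genes listed as responsive to SMAD2/3, 4 of 8 tested were lower with A83-01, 3 of 9 with deletion and 7 of 9 with both. *Fn1* (fibronectin), *Ccn2* (connective tissue growth factor) and *Pmepa1* were lower in each. The other way, *Tgfbi*, which encodes an extracellular matrix protein induced by TGF-β, was higher with both by 3.83 on the log2 scale (SE 0.81, adjusted p = 0.00849 by limma), at 20.9 to 152 against 0.944 to 8.70 with vehicle, a call lost under 10 of 17 alternatives. *Fn1* was at 1884, 3828 and 5624 normalized counts with vehicle and at 0.633 to 21.2 in the other samples, so it was high where *Cuzd1* and *Nptx1* were low. In the comparisons among the 3 groups with blocked signaling, 0 genes of these lists passed.

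**Figure D5:**
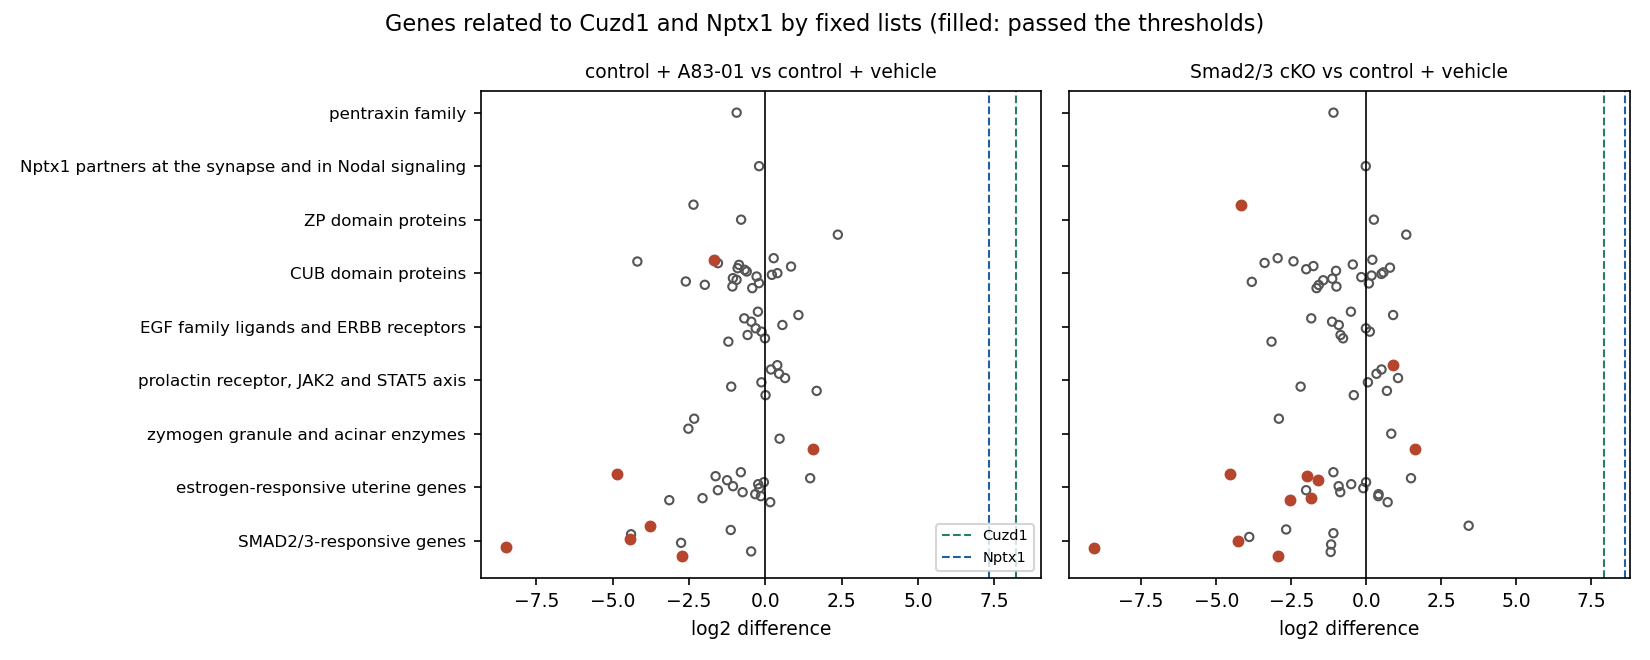
Log2 differences of the tested genes of each list in control + A83-01 vs. control + vehicle (left) and *Smad2/3* cKO vs. control + vehicle (right), with filled points for genes that passed the thresholds and dashed lines for *Cuzd1* and *Nptx1*. Both lines, to the right of every gene plotted, stand at 8.21 and 7.34 and at 7.93 and 8.61. These contrasts chose *Cuzd1* and *Nptx1*, so nothing is read from the place of the lines.

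Markers of other cell types were summed in each sample. The 5 leukocyte markers measured of 7 had sums of 1260 to 2555 with vehicle and of 3170 to 8396 with A83-01 in control organoids. Their sums were 1951 to 7299 with the deletion and 3841 to 7571 with both, and *Cd68*, a lysosomal protein gene of macrophages, made up most of the sum except in *Smad2/3* cKO replicate 2, where *Cd68* was at 3258 and *Lyz2* at 3372. *Ptprc*, which defines leukocytes, went from 12.5 to 38.5 in control + vehicle to 68.5 to 514 in the other samples. *Lyz2* differed in direction: it was at 41.2 to 70.8 with vehicle, 5.24 to 15.1 with A83-01 and 0 to 8.73 with both. In *Smad2/3* cKO it was at 0.94, 3372, 86.9 and 4.79. *Ptprc* passed as higher with the deletion and with both. With both, *Lyz2* also passed as lower and *Cd68* as higher. The part of these markers in the levels of *Cuzd1* and *Nptx1* was not tested. The 8 stromal markers measured of 9 summed to 37.0 to 203 in control + vehicle and 4.79 to 136 elsewhere, and the 2 endothelial markers of 4 to at most 27.6. The 3 smooth muscle markers of 4 summed to 55.1 to 192 in control + vehicle and 5.75 to 43.5 elsewhere. Of these, *Acta2* passed as lower with the deletion, by 3.12 on the log2 scale. The 6 uterine gland markers of 7 summed to 4530 to 5194, 3369 to 4333, 2148 to 10554 and 2161 to 11012 in the groups in order. Members went opposite ways. The gland protease gene *Prss29* was at 0 in each vehicle sample, at 16.3 to 322 with A83-01, at 188 to 6403 with the deletion and at 344 to 7875 with both, and passed as higher in all 3 comparisons with vehicle. The transcription factor gene *Sox17* was lower with both by 1.39 on the log2 scale (SE 0.28, adjusted p = 0.00675 by limma). The 9 epithelial markers summed to 254149 to 327217 with vehicle, 164521 to 284181 with A83-01, 133010 to 243810 with the deletion and 134174 to 202171 with both. Of these 9 genes, 0 passed with A83-01 and 1, the claudin gene *Cldn4*, was lower with the deletion. With both, *Cldn4* and the keratin genes *Krt8* and *Krt19* were lower and *Pax8* was higher. Over all genes, 2.27% passed in either direction with A83-01, 7.38% with the deletion and 11.7% with both.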

How the data were processed

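Gene expression was measured by RNA-seq in 15 mouse endometrial organoid samples of 4 groups. The authors made cDNA with an ultra-low input kit, sequenced it as paired reads, estimated counts per gene with Salmon 1.4.0 on GRCm39 and normalized them with DESeq2 1.32.0. The deposited signal is these normalized counts, which are not whole reads, so count models were not used here. The table held 16729 genes, of which 16697 matched a symbol. Positions and exon lengths are those of GENCODE M21 on GRCm38.

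For each comparison limma 3.58.1 (lmFit, eBayes with trend) was run in R 4.3.3 on the samples of its groups alone, on log2 of the value plus 1, two-sided, for genes whose mean in those samples reached 10, with Benjamini-Hochberg adjustment over all of them. The scripts were tested on simulated data. Depth was 20241771 to 24423127 normalized counts per sample, and values up to 3 were treated as the lowest measurable level. The 2 genes, the lists and the tests were chosen with earlier results of these data known. The genes named are *Cuzd1* and *Nptx1*, listed genes past the thresholds (at most the 4 largest changes per list and comparison), the 5 measured neighbours on each side, and the 5 most alike by Pearson r. Listed genes outside that rule, and *Fgfr2*, were named after their values were seen. In the control groups the replicate numbers pair the samples by label: control + vehicle and control + A83-01 replicates 1 to 3 have their label numbers in common. Their deviations from the group means correlated at 0.354 to 0.423. Replicates 3 and 4 of *Smad2/3* cKO and *Smad2/3* cKO + A83-01, whose label numbers differ, correlated at 0.374 and 0.375. The correlation therefore cannot show whether samples are paired. Alternatives were pseudocounts of 0.1 and 10, no filter, a minimum of 50, quantile normalization, equal totals, eBayes without trend, all groups in 1 fit, the replicate block, an adjusted p below 0.05, each replicate left out and, added after seeing the data, the label number series as a covariate.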

Additional observations from a re-analysis of the deposited data

Results flagged for a closer look

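*Nptx1* in *Smad2/3* cKO + A83-01 replicate 1, at 9276 normalized counts, stood apart from the other 3 samples of its group (6032 to 6305), with a gap of 0.916 of the group's whole range (0.897 on the log2 scale). The critical value it passed is one that about 1 in 20 groups of 4 pass by chance, and 12 combinations of gene, group and scale were examined. *Cuzd1* in the same sample, at 17803, lay between the other samples of the group.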

How the results depend on the processing

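Among the 3 tested comparisons, *Cuzd1* and *Nptx1* stayed short of the thresholds under every alternative but one: with the label number series as a covariate *Nptx1* passed in *Smad2/3* cKO + A83-01 vs. control + A83-01 (2.87, adjusted p = 0.000528 by limma, against adjusted p up to 0.520 over its other alternatives). Leaving out 1 replicate, that difference ran from 1.39 to 2.21, and *Cuzd1* in *Smad2/3* cKO vs. control + A83-01 from -0.67 to 0.11, turning to 0.039 and 0.11 without *Smad2/3* cKO replicates 2 and 3. Against control + vehicle both genes stayed higher under all alternatives, with *Cuzd1* between 7.44 and 9.78 and *Nptx1* between 6.29 and 9.87 on the log2 scale. With the replicate block, which pairs samples in the control groups only, A83-01 in control organoids gave 8.02 for *Cuzd1* and 7.02 for *Nptx1*, and in the other comparisons the block changed no call of these genes. Counts of genes past the thresholds moved more. For A83-01 in control organoids 295 became 49 to 312 without 1 replicate, 655 with all groups in 1 fit, 443 with the series and 955 at an adjusted p below 0.05. For *Smad2/3* cKO vs. control + vehicle 970 became 280 to 992 without 1 replicate, 452 without trend, 211 with the block and 2413 at the looser threshold. For *Smad2/3* cKO + A83-01 vs. control + A83-01 3 became 0 to 4 without 1 replicate, 1 without trend, 5 with all groups, 0 with the block and 72 with the series. The causes were not tested. Of 784 values of the other named genes under alternatives, 614 kept their side of the thresholds, 170 no longer passed and 0 reversed. Of the 5 genes most like *Cuzd1* and *Nptx1* by Pearson r, 1 and 0 were among the 5 by Spearman rho.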
